A study of Homo sapiens with 9 samples.

Results

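The NRF2 antioxidant target genes described here were 10 genes chosen by symbol, namely NQO1, HMOX1, GCLC, GCLM, TXNRD1, SRXN1, OSGIN1, AKR1C1, AKR1C3 and AKR1B10, out of 16199 genes listed in at least 1 library. They were measured by RNA-seq in HaCaT cells, an immortalised human skin keratinocyte line of wild-type genotype, which were grown past confluence. Untreated cells in serum-free medium were compared with cells given epidermal growth factor (EGF) at 10 nM for 24 h, and with cells given bleogen pB1, a plant peptide that activates the EGF receptor, at 1 µM for 24 h. Each group had 3 libraries. The doses of EGF and bleogen pB1 differed, so the agents were set side by side as dosed and not at matched concentrations.

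NRF2 (encoded by NFE2L2) is a transcription factor that KEAP1, an adaptor of a CUL3 ubiquitin ligase, marks for degradation in resting cells. Oxidants and electrophiles that modify KEAP1 cysteines let NRF2 accumulate, pair with a small MAF protein (MAFF, MAFG or MAFK) and bind antioxidant response elements, which the repressor BACH1 can also occupy. Its targets supply glutathione and thioredoxin reduction, heme breakdown and the reduction of quinones and carbonyls, and in keratinocytes they form part of the skin's defence against oxidants. Since the regulation of NRF2 is largely at the protein level, its own transcript is not a measure of its activity.

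The 9 libraries held 20288417 to 21320994 expected counts each, and 12394 genes passed the filter on low counts, among them all 10 target genes. A gene was called changed when its Benjamini-Hochberg adjusted p from edgeR's quasi-likelihood test was at most 0.05 and its log2 fold change was at least 0.5 in size. All 11 keratinocyte markers had at least 10 counts in every library, with a summed level of 16140 to 17820 CPM (counts scaled to library size) in untreated cells, 15120 to 16020 with EGF and 16580 to 19580 with bleogen pB1. Summed fibroblast markers (1 of 5 with at least 10 counts throughout) were at 4.87 to 6.53 CPM in untreated cells, 0.600 to 0.705 with EGF and 3.57 to 6.26 with bleogen pB1. Summed leukocyte markers (1 of 5, CD68) were at 11.7 to 12.5, 19.2 to 21.2 and 10.3 to 11.7 CPM in the same order. Melanocyte markers (0 of 5) summed to at most 1.72 CPM and endothelial markers (0 of 3) to at most 1.33 CPM in any library. Nothing in the labels states that the libraries came from separate cultures, so the p-values measure only the spread between these samples, which may be technical.

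EGF changed 6 of the 10 target genes, and bleogen pB1 changed 0. With EGF, HMOX1, AKR1C1, SRXN1, GCLM and OSGIN1 rose between 1.62-fold and 3.84-fold and AKR1B10 fell 9.77-fold, while NQO1, GCLC, TXNRD1 and AKR1C3 were not called. The 5 higher and 1 lower genes stand against a background in which EGF changed 36.9% of all tested genes, 15.1% higher and 21.8% lower. The median log2 fold change was 0.39 over the 10 genes and -0.01 over all tested genes. Upper-quartile scaling moved the median of all genes to -0.12 and the share of calls that were higher from 41.0% to 30.2%, but left the target genes at 5 higher and 1 lower. In bulk RNA, fewer cells expressing a gene and less RNA per cell cannot be told apart.

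**Figure D1:**
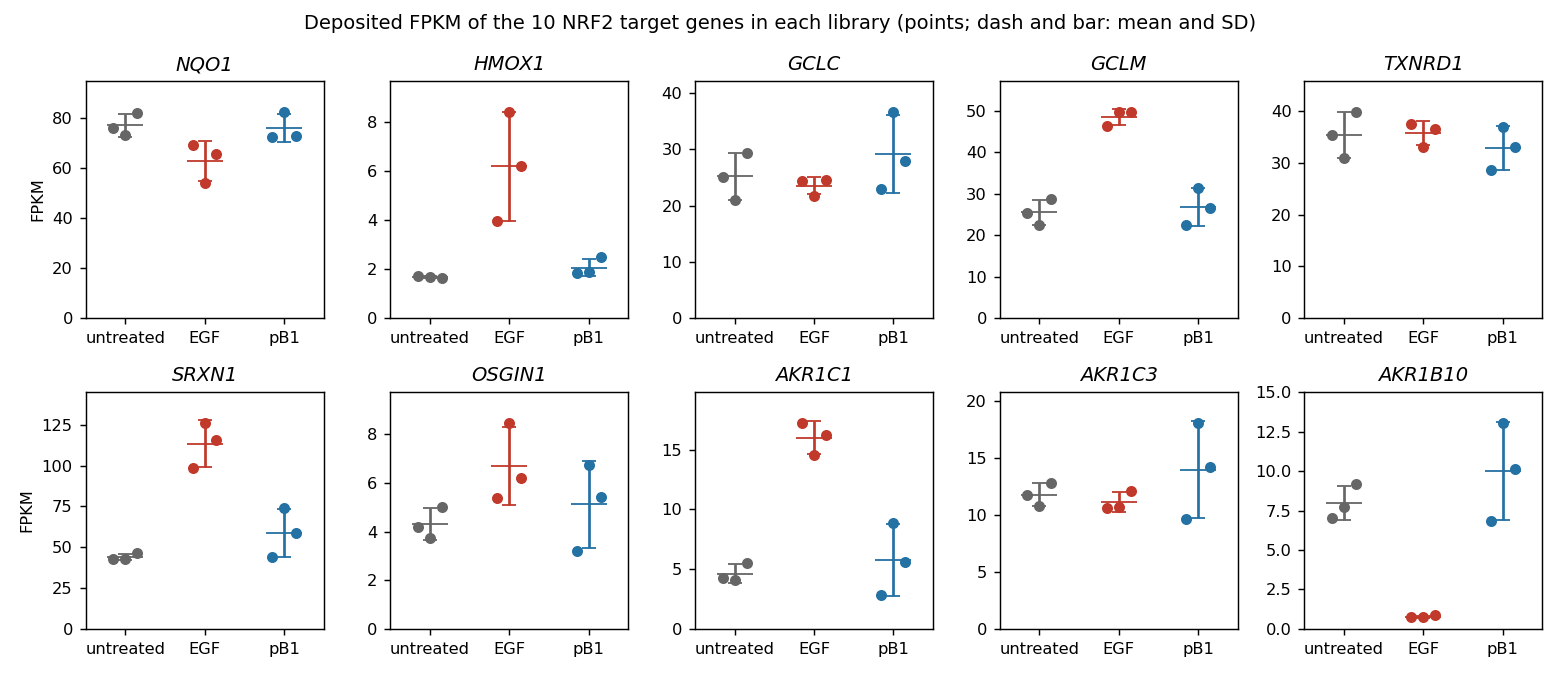
Deposited FPKM (vertical axes, from 0) of each of the 10 NRF2 target genes in the 3 untreated, 3 EGF and 3 bleogen pB1 libraries. Points are libraries, and the dash and bar are the mean and SD. The EGF points of HMOX1, GCLM, SRXN1, OSGIN1 and AKR1C1 lie above every untreated point, those of AKR1B10 lie near 0, and the bleogen pB1 points overlap the untreated range for every gene but HMOX1.

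HMOX1 encodes heme oxygenase 1, the inducible enzyme that breaks heme down to biliverdin, iron and carbon monoxide. It lies at chr22:35380361-35394214 (GRCh38, plus strand). Untreated libraries had 1.72, 1.70 and 1.65 FPKM, EGF libraries 3.98, 8.41 and 6.20 FPKM, and bleogen pB1 libraries 1.84, 1.87 and 2.48 FPKM. The untreated values were nearly the same, the EGF values were all higher and differed most among themselves, and the bleogen pB1 values lay just above the untreated range. HMOX1 rose with EGF by 1.94 on the log2 scale (SE 0.24, 95% interval 1.41 to 2.47, adjusted p = 1.7e-05). These levels rest on 52 to 54 expected counts per untreated library and 127 to 266 per EGF library.

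The subunits of glutamate-cysteine ligase, which catalyses the rate-limiting step of glutathione synthesis, responded differently to EGF. GCLM, the modifier subunit, had 25.29, 22.53 and 28.71 FPKM in untreated, 46.23, 49.72 and 49.69 FPKM in EGF and 22.36, 31.42 and 26.67 FPKM in bleogen pB1 libraries. It rose 1.99-fold with EGF (log2 0.99, SE 0.11, adjusted p = 4.8e-06), with no overlap between the groups. GCLC, the catalytic subunit, had 25.14, 21.02 and 29.32 FPKM in untreated, 24.34, 21.75 and 24.45 FPKM in EGF and 23.02, 36.61 and 27.84 FPKM in bleogen pB1 libraries. The EGF values of GCLC lay inside the untreated range, and its log2 fold change was -0.04 (95% interval -0.35 to 0.28, adjusted p = 0.84).

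The ratio of GCLM to GCLC, formed after these values had been seen, was 1.01, 1.07 and 0.979 in untreated libraries on the FPKM scale. It was 1.90, 2.29 and 2.03 in EGF libraries and 0.971, 0.858 and 0.958 in bleogen pB1 libraries. Its mean in EGF libraries was 2.03 times that in untreated ones, and in bleogen pB1 libraries 0.912 times. Both shifts separated the groups fully, and both gave a two-sided exact permutation p of 0.1, the smallest that 3 against 3 libraries allow.

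To place these subunits beside their start sites, 300-base windows (250 bases before to 50 after a transcription start) were taken from RefSeq on GRCh38.p14 for 8 of the 10 genes; HMOX1 and AKR1B10 had no window. Both strands were searched for the core antioxidant response element TGACNNNGC and for TGANTCAGC, a spelling added after the OSGIN1 window had been seen, which contains the AP-1 core TGANTCA. The first was present in 13.3% and the second in 1.36% of 35116 windows, and either in 14.0%. Matches were found in 4 of the 10 windows of these genes, in GCLM, OSGIN1 and both windows of TXNRD1, and that of OSGIN1 was found only with the added spelling. The windows of the ligase subunits are shown because the subunits differed in response. The capitals mark the match, which in GCLM is on the opposite strand and starts 34 bases before the start site, and GCLC held no match. The windows lie at chr1:93909381-93909680 (GCLM) and chr6:53545052-53545351 (GCLC), both on the minus strand.
GCLM: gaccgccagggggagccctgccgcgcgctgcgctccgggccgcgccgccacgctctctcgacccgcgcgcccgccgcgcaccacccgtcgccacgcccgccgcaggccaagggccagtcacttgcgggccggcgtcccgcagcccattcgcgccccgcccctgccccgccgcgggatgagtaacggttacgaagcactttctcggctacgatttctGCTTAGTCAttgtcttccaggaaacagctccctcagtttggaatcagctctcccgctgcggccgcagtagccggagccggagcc
GCLC: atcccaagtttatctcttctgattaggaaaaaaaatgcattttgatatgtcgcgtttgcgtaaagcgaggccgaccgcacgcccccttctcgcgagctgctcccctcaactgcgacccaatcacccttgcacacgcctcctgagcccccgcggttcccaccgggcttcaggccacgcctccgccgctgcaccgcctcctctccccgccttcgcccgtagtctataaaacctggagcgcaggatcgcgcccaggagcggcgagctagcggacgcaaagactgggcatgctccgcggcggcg
A match is a description of the letters in the window and not evidence of binding. Sequence outside the 300 bases was not searched, so a window without a match does not show that the gene lacks the element.

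SRXN1 and TXNRD1 act in the thioredoxin arm of the response. SRXN1, sulfiredoxin, which restores overoxidised peroxiredoxins, had 42.94, 43.09 and 46.46 FPKM in untreated, 98.29, 126.27 and 115.89 FPKM in EGF and 44.22, 73.75 and 58.75 FPKM in bleogen pB1 libraries. Every EGF value was more than double the untreated ones, and SRXN1 rose 2.69-fold with EGF (SE 0.14 on the log2 scale, adjusted p = 2.5e-06). TXNRD1, the cytosolic thioredoxin reductase, had 35.37, 30.92 and 39.78 FPKM in untreated, 37.54, 33.05 and 36.48 FPKM in EGF and 28.54, 36.92 and 33.00 FPKM in bleogen pB1 libraries. All EGF values of TXNRD1 lay inside the untreated range. Its log2 fold change with EGF was 0.08 (95% interval -0.14 to 0.29, adjusted p = 0.51), and -0.03 with upper-quartile scaling.

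The SRXN1 window held no match, whereas both RefSeq windows of TXNRD1, the gene that was not called, did. The first TXNRD1 window, chr12:104215529-104215828 on the plus strand, is shown because it held the element on each strand (capitals).
TXNRD1: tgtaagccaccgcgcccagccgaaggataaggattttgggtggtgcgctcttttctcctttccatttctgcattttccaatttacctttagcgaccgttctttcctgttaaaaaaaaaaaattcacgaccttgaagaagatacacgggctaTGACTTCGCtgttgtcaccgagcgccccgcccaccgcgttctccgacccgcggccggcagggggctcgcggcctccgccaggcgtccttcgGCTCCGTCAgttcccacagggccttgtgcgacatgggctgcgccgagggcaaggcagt
EID3, which overlaps TXNRD1 on the same strand, had 0 to 6 counts per library.

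OSGIN1, an oxidative stress-induced growth inhibitor, had the weakest of the called rises. Its untreated libraries had 4.18, 3.73 and 5.02 FPKM, its EGF libraries 5.36, 8.47 and 6.21 FPKM and its bleogen pB1 libraries 3.20, 6.75 and 5.41 FPKM. The lowest EGF value was only slightly above the highest untreated one, and the bleogen pB1 values lay on both sides of the untreated range. OSGIN1 rose by 0.70 on the log2 scale with EGF (SE 0.23, 95% interval 0.19 to 1.20, adjusted p = 0.018). The call was lost without untreated library 1 (adjusted p = 0.054), untreated library 2 (0.073) or EGF library 2 (0.07), and with limma on unfiltered FPKM (0.093). MLYCD, which overlaps OSGIN1 on the same strand, had 4 to 34 counts per library and fell with EGF (log2 -1.61, adjusted p = 0.0043). The OSGIN1 window, chr16:83952990-83953289 on the plus strand, carried TGANTCAGC on the opposite strand, starting 99 bases before the start site (capitals).
OSGIN1: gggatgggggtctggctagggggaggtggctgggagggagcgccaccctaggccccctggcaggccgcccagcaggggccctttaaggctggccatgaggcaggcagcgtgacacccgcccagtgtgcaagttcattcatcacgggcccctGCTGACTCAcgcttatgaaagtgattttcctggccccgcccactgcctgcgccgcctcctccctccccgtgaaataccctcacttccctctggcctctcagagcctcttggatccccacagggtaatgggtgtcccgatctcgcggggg

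NQO1 encodes a quinone reductase and is among the most widely used readouts of NRF2. It had 75.94, 72.99 and 82.06 FPKM in untreated, 69.16, 53.87 and 65.74 FPKM in EGF and 72.56, 82.37 and 72.73 FPKM in bleogen pB1 libraries. All EGF values were below all untreated ones. The log2 difference with EGF was -0.23 (SE 0.09, adjusted p = 0.036), which passed the p threshold but not the limit on fold, so NQO1 was not called. The p threshold was missed too without untreated library 1 (adjusted p = 0.068) or 3 (0.13), EGF library 2 (0.17, log2 -0.12) or 3 (0.055), or bleogen pB1 library 3 (0.054). HMOX1 and NQO1 therefore lay on opposite sides of the untreated level in every EGF library.

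The aldo-keto reductases reduce carbonyls, steroids and prostaglandins, and gave the widest range of responses. AKR1C1, which inactivates progesterone, had 4.30, 4.07 and 5.50 FPKM in untreated, 17.26, 14.58 and 16.19 FPKM in EGF and 2.85, 8.86 and 5.57 FPKM in bleogen pB1 libraries. It rose 3.62-fold with EGF (log2 1.85, SE 0.27, adjusted p = 5.6e-05), with all EGF values far above the untreated ones. AKR1C3, which forms testosterone and prostaglandin F, had 11.76, 10.82 and 12.82 FPKM in untreated, 10.61, 10.73 and 12.15 FPKM in EGF and 9.67, 18.13 and 14.23 FPKM in bleogen pB1 libraries. These groups overlapped, and the log2 fold change of AKR1C3 with EGF was -0.01 (95% interval -0.39 to 0.37, adjusted p = 0.97), or 0.001 with relative-log-expression (RLE) scaling.

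AKR1C1, AKR1C2 and AKR1C3 lie next to each other on chromosome 10 and are related copies, AKR1C1 and AKR1C2 the closest, so the split of reads between them is uncertain. AKR1C2 was the most abundant of the 3, with 31.22, 26.43 and 37.94 FPKM in untreated, 27.05, 29.99 and 29.88 FPKM in EGF and 23.56, 53.85 and 39.03 FPKM in bleogen pB1 libraries. Its log2 fold change with EGF was -0.08 (adjusted p = 0.77). The summed counts of the 3 copies had a log2 fold change of 0.11 with EGF (adjusted p = 0.65). AKR1C1 held a mean of 4.74% of those counts in untreated libraries and AKR1C2 84.3%, so the sum mostly follows AKR1C2. AKR1C1 had 109 to 149 expected counts per untreated library and 395 to 470 per EGF library. For AKR1C2 these were 1835 to 2653 and 1903 to 2184. Whether reads of AKR1C2 were assigned to AKR1C1 was not tested. AKR1C1 made up 9.10%, 9.85% and 9.78% of the summed FPKM of the 3 genes in untreated libraries, 31.4%, 26.4% and 27.8% in EGF libraries and 7.90%, 11.0% and 9.47% in bleogen pB1 libraries. This share, chosen after the levels had been seen, did not overlap between EGF and untreated libraries (two-sided exact permutation p = 0.1, the smallest possible).

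The likeness of these copies extends to their start sites. The windows of AKR1C1 (chr10:4963165-4963464, plus strand) and AKR1C2 (chr10:5003808-5004107, minus strand) were identical in 288 of 296 aligned columns (97.3%), as compared with 75.7% and 75.3% between AKR1C1 and the windows of AKR1C3. They are shown with the mismatched bases and the gap in capitals, since near-identical sequence lies beside unlike fold changes, and neither held the searched elements.
AKR1C1: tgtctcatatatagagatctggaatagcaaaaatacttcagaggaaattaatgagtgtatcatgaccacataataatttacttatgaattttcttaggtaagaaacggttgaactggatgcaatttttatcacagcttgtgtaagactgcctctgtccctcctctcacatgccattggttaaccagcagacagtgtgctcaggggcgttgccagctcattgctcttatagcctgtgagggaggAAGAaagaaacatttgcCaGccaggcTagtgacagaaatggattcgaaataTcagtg
AKR1C2: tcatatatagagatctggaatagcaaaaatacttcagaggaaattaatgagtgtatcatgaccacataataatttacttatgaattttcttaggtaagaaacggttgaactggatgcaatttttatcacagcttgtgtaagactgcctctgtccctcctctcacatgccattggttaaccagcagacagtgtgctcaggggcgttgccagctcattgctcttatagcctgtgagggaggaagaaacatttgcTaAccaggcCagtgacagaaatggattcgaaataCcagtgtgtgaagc

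AKR1B10, which reduces retinal and lipid aldehydes, was the only target gene that fell past both limits with EGF. It had 7.04, 7.71 and 9.17 FPKM in untreated, 0.75, 0.73 and 0.85 FPKM in EGF and 6.83, 13.07 and 10.13 FPKM in bleogen pB1 libraries. The EGF values were the lowest of any target gene in any group and agreed closely among themselves. The fall was 9.77-fold (log2 -3.29, SE 0.25, adjusted p = 2.8e-07) and rests on 23 to 28 expected counts per EGF library against 222 to 290 per untreated library. Its neighbouring copy AKR1B15 was nearly undetected, with at most 5.81 expected counts per library and 0 in the EGF libraries, and summing the copies gave a log2 fold change of -3.30.

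**Figure D2:**
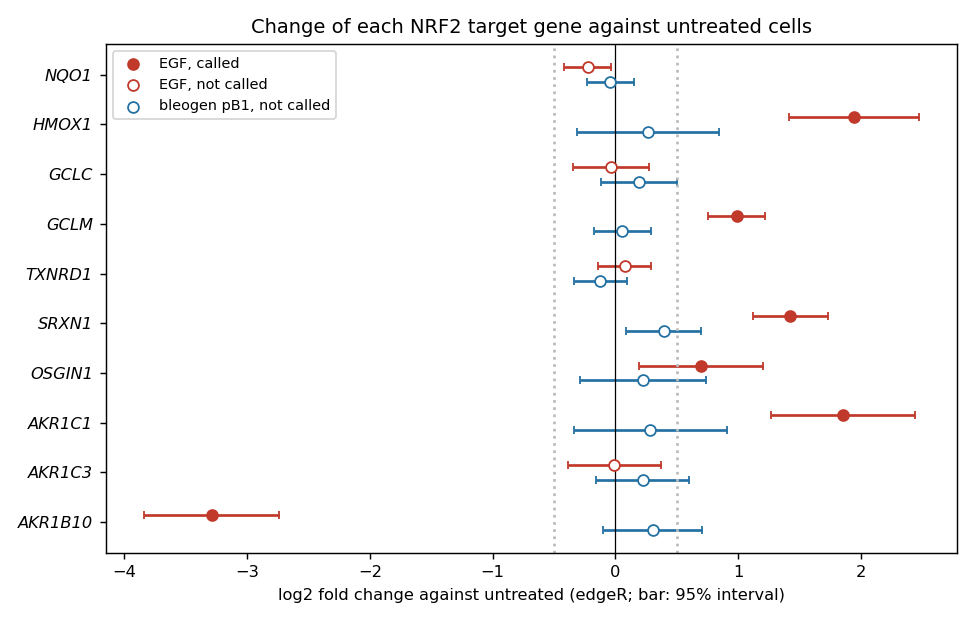
Log2 fold change against untreated cells (horizontal axis) of each target gene with EGF (red) and bleogen pB1 (blue), with 95% intervals from edgeR. Filled points were called, open points were not, and dotted lines mark the fold limit of 0.5 in either direction. With EGF 5 genes lie to the right and AKR1B10 far to the left at -3.29, while all bleogen pB1 points lie between -0.12 and 0.40.

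EGF also changed the order of abundance among the target genes. In untreated cells NQO1 was the most abundant (mean 77.0 FPKM), followed by SRXN1 (44.2), TXNRD1 (35.4), GCLM (25.5), GCLC (25.2), AKR1C3 (11.8), AKR1B10 (7.97), AKR1C1 (4.62), OSGIN1 (4.31) and HMOX1 (1.69). Neighbours in that order did not overlap, other than GCLM with GCLC and AKR1C1 with OSGIN1. With EGF, SRXN1 was the most abundant (mean 113.5 FPKM), ahead of NQO1 (62.9) and GCLM (48.5), and AKR1B10 was the least abundant (0.777). HMOX1 at 6.20 FPKM overlapped OSGIN1 at 6.68 FPKM in EGF libraries, and other neighbours there did not overlap. With bleogen pB1 the order was that of untreated cells except that GCLC (29.2 FPKM) stood above GCLM (26.8 FPKM). Of the 9 pairs of neighbours in that order 6 overlapped, among them NQO1 with SRXN1, so it was less settled than in the other groups.

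Bleogen pB1 changed 0 of the 10 target genes by edgeR, against 1.48% of all tested genes called (0.218% higher, 1.26% lower). SRXN1 alone (1 gene) had an unadjusted p under 0.05, and DESeq2 and each limma fit also called 0. The estimates were above 0 for 8 genes and below 0 for NQO1 and TXNRD1, with a median log2 fold change of 0.22 as compared with 0.00 over all tested genes. The largest estimates were SRXN1 at 0.40 (95% interval 0.09 to 0.70, adjusted p = 0.12), AKR1B10 at 0.30 (-0.10 to 0.71, adjusted p = 0.36) and AKR1C1 at 0.28 (-0.34 to 0.91, adjusted p = 0.6). For HMOX1 the estimate was 0.27 (95% interval -0.31 to 0.85, adjusted p = 0.6), so a rise of the size seen with EGF lay outside the interval. The narrowest interval was that of NQO1, from -0.23 to 0.15, whereas changes of 1.5-fold or more lay within the intervals of HMOX1, SRXN1, OSGIN1, AKR1C1, AKR1C3 and AKR1B10.

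The bleogen pB1 libraries were spread apart in the same order for most target genes. Library 2 was the highest of its group for 9 of the 10 genes and library 1 the lowest for 9 of the 10, as compared with 39.0% and 38.4% of all tested genes. HMOX1 was the exception to the first count, being highest in library 3. The median difference of the target genes from the untreated mean was -0.21 in library 1, 0.56 in library 2 and 0.24 in library 3 on the log2 CPM scale, and over all tested genes it was within 0.01 of 0 in each. In library 2, 8 target genes lay above all untreated libraries and 0 below (36.5% and 38.3% of all tested genes), and in library 1 the counts were 1 above and 7 below (29.2% and 27.3%).

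The estimates for bleogen pB1 depended on these libraries. Without library 1, 2 target genes were called, SRXN1 (log2 0.56, adjusted p = 0.0074) and AKR1B10 (0.52, adjusted p = 0.035). Without library 2, the estimates of OSGIN1 (-0.03), AKR1C1 (-0.17), GCLC (-0.004) and AKR1C3 (-0.01) were below 0. Among untreated libraries, library 3 was the highest for 9 of the 10 genes (37.9% of all tested genes) and library 2 the lowest for 7 (34.2%). The target genes share libraries, so these counts are descriptions of the libraries and carry no test.

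**Figure D3:**
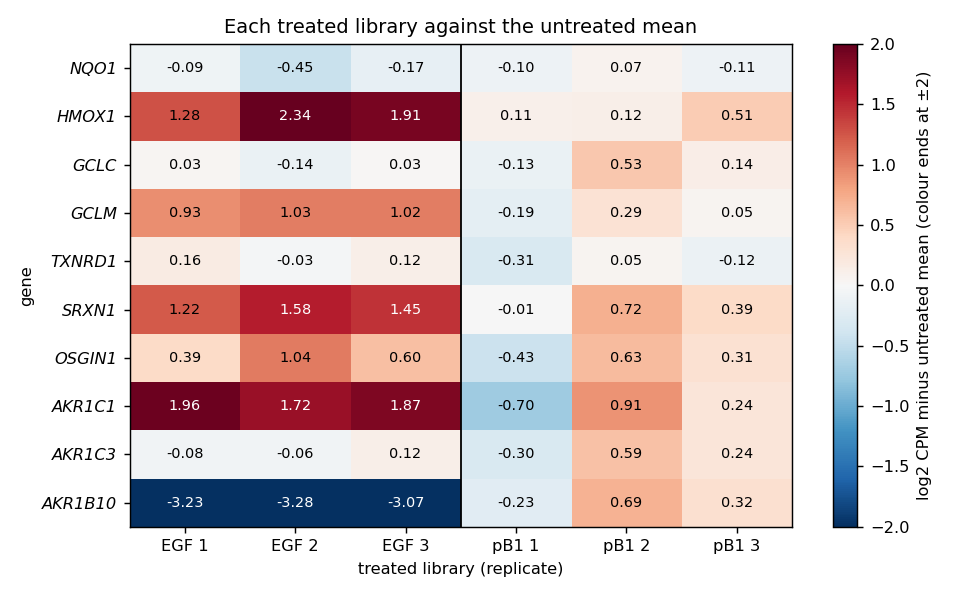
Difference of each treated library (columns, with pB1 for bleogen pB1) from the untreated mean in log2 CPM for each target gene (rows), with the value printed in the cell and colour ending at 2 in either direction. The EGF columns have the same sign for each called gene, with HMOX1 running from 1.28 to 2.34, while the bleogen pB1 columns run from mostly negative in library 1 (AKR1C1 -0.70) to mostly positive in library 2 (AKR1C1 0.91).

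When EGF was compared directly with bleogen pB1, 5 of the 10 target genes differed, against 28.8% of all tested genes (10.8% higher, 18.0% lower with EGF). HMOX1 (log2 1.68, adjusted p = 6.8e-05), AKR1C1 (1.57, adjusted p = 0.00026), SRXN1 (1.03, adjusted p = 5e-05) and GCLM (0.94, adjusted p = 1.2e-05) were higher with EGF. AKR1B10 was 12.1-fold lower with EGF (adjusted p = 1.6e-07). OSGIN1 was not called (0.47, 95% interval -0.03 to 0.97, adjusted p = 0.095), though it was without EGF library 1 (adjusted p = 0.038) or bleogen pB1 library 2 (0.018). The sum of the AKR1C copies, most of it AKR1C2, had a log2 difference of -0.15 (adjusted p = 0.55). The intervals of the other 4 genes (NQO1, GCLC, TXNRD1 and AKR1C3) ran from -0.61 to 0.42 over all 4.

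**Figure D4:**
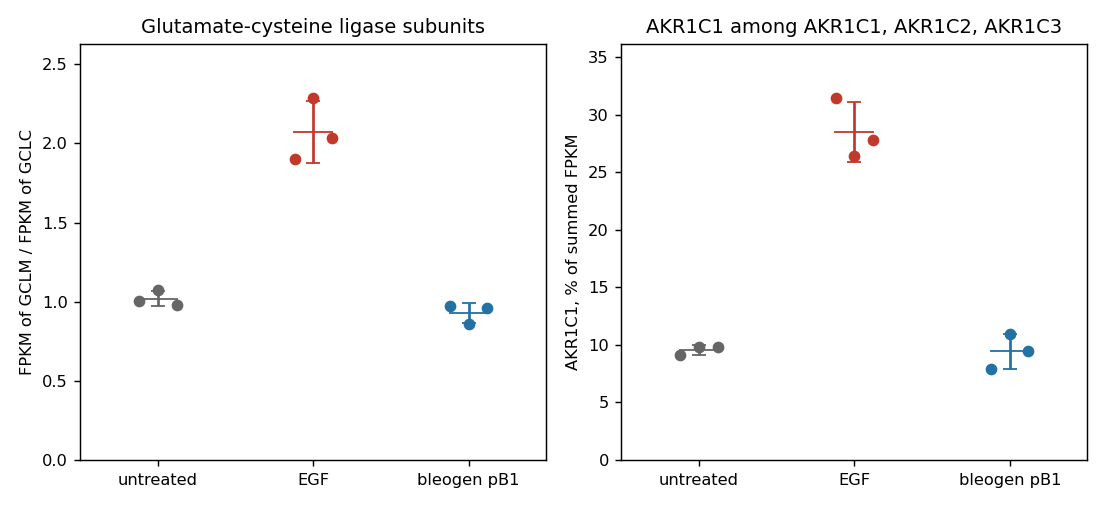
Left, ratio of GCLM to GCLC FPKM, and right, AKR1C1 as a percentage of the summed FPKM of AKR1C1, AKR1C2 and AKR1C3 (vertical axes from 0), in each library of the 3 groups. Points are libraries, and the dash and bar are the mean and SD. The EGF libraries lie at 1.90 to 2.29 and 26.4% to 31.4%, above all others.

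Beyond the target genes, 70 further genes were listed by role, of which 66 were tested. The list holds genes of the pathway and, for comparison, 7 oxidative-stress enzymes that are not usually counted as NRF2 targets. MGST1, CES1 and AKR1B15 were below the count filter and AKR1C4 was listed in no library. EGF raised 10 and lowered 13 of the 66 (9 and 14 with upper-quartile or no scaling), with a median log2 fold change of 0.01. These shares lie near those over all tested genes, 15.1% higher and 21.8% lower, which are also the background for each group below. Among 13 regulators of NRF2, 5 rose and 0 fell (all tested genes, 15.1% and 21.8%), and the median was 0.24. These included all the small MAF partners, MAFG (log2 1.14, adjusted p = 1e-06), MAFF (1.02, adjusted p = 5.9e-07) and MAFK (0.91, adjusted p = 2.3e-06). The remaining called regulators were NFE2L3, an NRF2 relative (0.78), and CUL3 (0.54). NFE2L2 itself was at 0.12 (adjusted p = 0.068), KEAP1 at 0.11 (adjusted p = 0.21), SQSTM1, whose product binds KEAP1, at -0.19 (adjusted p = 0.075) and BACH1 at -0.27 (adjusted p = 0.0024, under the fold limit).

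MAFG levels show the separation of the groups. They were 11.71, 11.84 and 13.43 FPKM in untreated, 23.90, 28.41 and 25.79 FPKM in EGF and 11.80, 16.19 and 14.28 FPKM in bleogen pB1 libraries. NFE2L2 was steady, at 52.00 to 54.83 FPKM in untreated, 54.01 to 56.99 in EGF and 52.11 to 57.13 in bleogen pB1 libraries. The EGF and bleogen pB1 ranges of NFE2L2 overlapped the untreated one, which those of MAFG did for bleogen pB1 only.

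In the glutathione group, EGF raised 3 and lowered 2 of 13 genes (all tested genes, 15.1% and 21.8%), with a median of 0.20. CHAC1, which degrades glutathione, rose most (log2 1.79, adjusted p = 0.00018), followed by SLC7A11, the cystine importer (0.93, adjusted p = 0.00035), and ABCC2, an exporter of glutathione conjugates (0.87, adjusted p = 0.0026). GGT1, which cleaves extracellular glutathione, fell (-2.09, adjusted p = 2.9e-05), as did GPX4, the lipid peroxide peroxidase (-0.88, adjusted p = 9.5e-06). Of 6 thioredoxin and peroxiredoxin genes 0 were called higher and 1 lower (median 0.08), namely TXNIP, the inhibitor of thioredoxin (-1.53, adjusted p = 8.4e-05). TXN (0.385, adjusted p = 0.00022), PRDX1 (0.375, adjusted p = 0.00051) and PRDX6 (0.243, adjusted p = 0.0028) were higher but under the fold limit. TXN2 was lower and also under it (-0.234, adjusted p = 0.0081). None of the 6 genes for NADPH supply was called with EGF by edgeR (median -0.07), although 4 had an unadjusted p under 0.05, since each estimate was under the fold limit. The highest was TALDO1, of the pentose phosphate pathway, at 0.24.

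Of 8 heme and iron genes, 1 rose and 4 fell with EGF (all tested genes, 15.1% and 21.8%), and the median was -0.43. The constitutive heme oxygenase HMOX2 rose (log2 0.95, adjusted p = 1.7e-07). The ferritin heavy chain FTH1 (-1.07, adjusted p = 5.6e-08), the heme transporter SLC48A1 (-0.95, adjusted p = 1.5e-05), biliverdin reductase BLVRA (-0.82, adjusted p = 7.7e-06) and the ferritin light chain FTL (-0.56, adjusted p = 2.4e-06) fell. FTH1 was at 3692 to 3931 FPKM in untreated and 1633 to 1885 FPKM in EGF libraries. HMOX1 rose in the same EGF libraries in which both ferritin genes fell.

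Among 13 tested genes for detoxification, 1 rose and 5 fell with EGF (all tested genes, 15.1% and 21.8%), and the median was -0.22. NQO2, the quinone reductase related to NQO1, rose (log2 0.66, adjusted p = 0.00094), while epoxide hydrolase EPHX1 (-1.63, adjusted p = 7e-08), the aldehyde dehydrogenase ALDH3A1 (-1.55, adjusted p = 3.1e-08) and PTGR1, a reductase of prostaglandins and leukotrienes (-0.95, adjusted p = 1.3e-05), fell most. Of 7 oxidative-stress enzymes that are not usually counted as NRF2 targets, 0 were called higher and 1 lower (median 0.11), namely CAT, catalase (-1.18, adjusted p = 1.5e-08). By adjusted p alone 5 of the 7 passed, and all of these but CAT were under the fold limit.

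With bleogen pB1, 0 of the 66 listed genes rose and 1 fell by edgeR, a share near the 1.48% of all tested genes called, and the median was -0.01. SLC48A1 had 10.02, 9.42 and 9.63 FPKM in untreated and 7.96, 5.73 and 6.20 FPKM in bleogen pB1 libraries, with no overlap, and fell by 0.57 on the log2 scale (adjusted p = 0.018). This call was lost without any 1 of the untreated libraries (adjusted p = 0.11, 0.062 and 0.062) or without bleogen pB1 library 2 (0.076) or 3 (0.11), and without library 1, 3 listed genes were called (SLC48A1, TXNIP and AKR1C2). The NADPH-supplying enzymes PGD (-0.45, adjusted p = 0.00065) and ME1 (-0.30, adjusted p = 0.031) passed the p threshold but not the fold limit. PGD had 213.49, 205.78 and 222.81 FPKM in untreated, 209.12, 227.20 and 218.83 FPKM in EGF and 160.12, 159.44 and 158.40 FPKM in bleogen pB1 libraries. It was thus lower in every bleogen pB1 library than in any other library, and was called in the direct comparison of EGF with bleogen pB1 (log2 0.54 higher with EGF). The regulators were at 0.18 (MAFG), 0.12 (MAFK), -0.34 (MAFF, adjusted p = 0.051), 0.00 (NFE2L2), 0.03 (KEAP1), 0.01 (BACH1) and -0.32 (SQSTM1, adjusted p = 0.064), and none was called.

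In the direct comparison, EGF libraries were higher than bleogen pB1 libraries for 9 and lower for 11 of the 66 listed genes, as compared with 10.8% and 18.0% of all tested genes. MAFF showed the larger difference among the small MAF genes (log2 1.36, adjusted p = 7.7e-08), followed by MAFG (0.96, adjusted p = 5.7e-06) and MAFK (0.79, adjusted p = 1e-05). Both comparisons with EGF use the same EGF libraries.

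**Figure D5:**
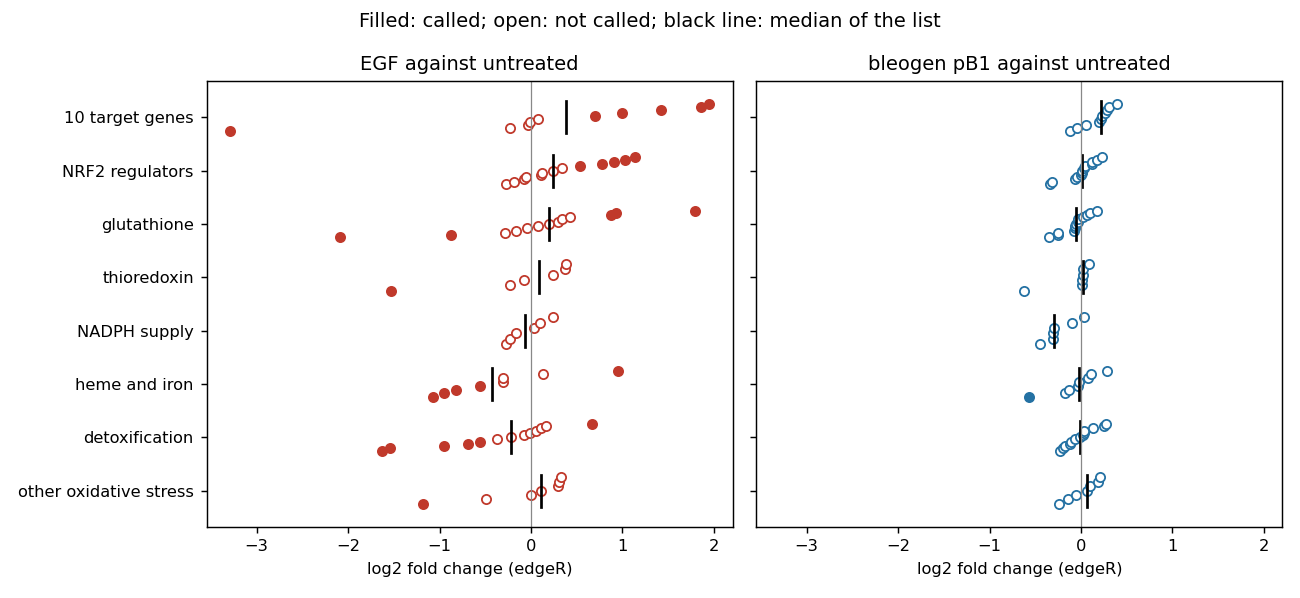
Log2 fold change (horizontal axes) of the 10 target genes and the 66 other listed genes, grouped by role (rows). EGF (left) and bleogen pB1 (right) are each set against the same untreated libraries. Each point is a gene, filled points were called, open points were not, and black lines are medians. With EGF the medians run from 0.39 (target genes) to -0.43 (heme and iron), and with bleogen pB1 only SLC48A1 is filled.

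The genes whose levels followed those of NQO1 and HMOX1 most closely across the 9 libraries were found by Pearson's r on log2 CPM. For NQO1 they included ASF1A (r = 0.964), SNAPC3 (0.958), ENTPD7 (0.946) and CLCA2 (0.938). For HMOX1 they were KATNBL1 (0.992), CCDC85B (0.992), SIRT6 (0.991), SBF1 (0.989) and TMC8 (0.988). None of these genes is a target gene or a listed pathway gene. Within the set, the r with HMOX1 was 0.935 for SRXN1, 0.915 for GCLM, 0.841 for AKR1C1 and 0.751 for OSGIN1, and -0.836 for NQO1 and -0.919 for AKR1B10. The 9 libraries fall into treatment groups, so these values largely restate the group differences.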

How the data were processed

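The authors deposited 1 table per library (3 untreated, 3 EGF and 3 bleogen pB1) with an expected count, an FPKM value and an effective gene length for each gene. Per the labels, oligo-dT selected RNA was made into dUTP-marked libraries and sequenced on a DNBSEQ platform, and the submitters' processing notes name GRCh38.p12. The aligner, the counting program and whether counting used strand are not given in the sources used here. The deposited FPKM values are expected counts scaled by the authors to gene length and library size. Genes missing from a table were set to 0.

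Expected counts were rounded to whole numbers, filtered with filterByExpr and tested over all 9 libraries with edgeR 4.0.16 (TMM factors 0.9635 to 1.024, quasi-likelihood test, 6 residual degrees of freedom) in R 4.3.3. Levels are given as FPKM, log2 CPM was computed with a prior count of 2, and adjustment was over all 12394 tested genes. Each library held at least 20288417 expected counts, and 3 counts corresponded to 0.141 to 0.148 CPM. Alternatives were DESeq2 1.42.0, limma 3.58.1 on log2(FPKM + 1) or log2(FPKM + 0.1), other scaling, filters and limits, each library left out, summed gene copies and a replicate block. The fit was run on 2 simulated data sets, with 200 of 12394 genes changed 2-fold in the EGF libraries. It recovered 176 and 174 of them, with 5 and 2 false calls. Far fewer genes changed there than the 36.9% called with EGF, so scaling under such wide change was not tested. Exact permutation tests used the ratios. Named genes were the 10 target genes, 9 fixed regulators and copies, and up to 3 higher and 3 lower called genes per list by size of change. NFE2L3, CUL3, FTL, TXN, TXN2, PRDX1, PRDX6, TALDO1 and ME1 were named after their values were seen. The members and lists were chosen with earlier results of these data known. Some genes that the naming rule picks are not reported here.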

Additional observations from a re-analysis of the deposited data

How the results depend on the processing

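Of the target genes, 6 were called with EGF and 4 to 7 under the alternatives (4 with a log2 fold limit of 1, 5 with limma on unfiltered values, and 5 with the AKR1C copies replaced by their sum), and leaving out 1 library gave 5 to 6. Whether the replicate numbers pair the libraries is not stated, and the libraries were treated as unpaired. Deviations from the group means of same-numbered libraries correlated at 0.0039 to 0.0449 (EGF with untreated), -0.0304 to 0.207 (bleogen pB1 with untreated) and 0.0269 to 0.0562 (EGF with bleogen pB1). Those of different-numbered libraries correlated at -0.0756 to 0.0408, -0.253 to 0.163 and -0.078 to 0.0505 in the same order. These ranges overlap and do not settle whether the libraries are paired. The replicate block left 6, 0 and 5 target genes called. With bleogen pB1 the count ran from 0 to 2 when 1 library was left out. The listed genes called with EGF were 23, falling to 9 with a fold limit of 1 and rising to 48 with adjusted p alone. In EGF against bleogen pB1 they were 20, 7 and 43. With bleogen pB1 the listed count of 1 was 0 in limma on log2(FPKM + 1) with and without a filter, 0 with a fold limit of 1, 4 with adjusted p alone, and 0 to 3 when 1 library was left out.

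Signs turned only for small or uncalled differences, other than where AKR1C1 was replaced by the sum of the AKR1C copies, most of it AKR1C2, which was -0.153 in EGF against bleogen pB1. With EGF, leaving out 1 library gave -0.145 to 0.084 for GCLC, -0.007 to 0.167 for TXNRD1 and -0.071 to 0.05 for AKR1C3. TXNRD1 was -0.026 with upper-quartile factors, and AKR1C3 was 0.003 in DESeq2, 0.001 with RLE factors and 0.112 when replaced by that sum. With bleogen pB1, leaving out 1 library gave -0.106 to 0.002 for NQO1, -0.004 to 0.336 for GCLC, -0.077 to 0.167 for GCLM, -0.025 to 0.471 for OSGIN1, -0.172 to 0.607 for AKR1C1 and -0.01 to 0.425 for AKR1C3, and for AKR1C3 in EGF against bleogen pB1 -0.435 to 0.004. The cause was not tested. The fall of AKR1B10 with EGF had a log2 fold change of -2.33 on the log2(FPKM + 1) scale, which understates changes of low genes. Expressed as counts, the AKR1C1 share rose 3.37-fold in place of 2.98-fold with EGF, an alternative chosen after seeing the data.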
